A study of Mus musculus with 12 samples.

Results

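The 5 × FAD mouse is a model of Alzheimer's disease, and 22 linear noncoding transcripts of 5 genes were followed in its brain. The genes, Mllt10, Strn3, Dock3, Elavl2 and Myt1, are hosts of circular RNAs (circRNAs). The members were all rows of the deposited transcript counts whose Ensembl transcript belongs to 1 of these genes in GENCODE M21, which gave 22 of 48033 rows. Mllt10 had 7 of them, Dock3 had 6, Elavl2 and Myt1 had 4 each, and Strn3 had 1. The 5 × FAD mice carry human transgenes with familial Alzheimer's disease mutations, APP among them, under the neuronal Thy1 promoter, on a C57BL/6J background. Their non-transgenic controls (WT mice) were of the same strain, and all mice were 7 months old. Total RNA of the hippocampus and of the cerebral cortex was sequenced after removal of ribosomal RNA, with 3 libraries in each of the 4 groups of region and genotype.

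A circRNA forms when the splicing machinery joins the end of an exon back to the start of the same or an earlier exon of its pre-mRNA, instead of joining it forward to the next exon. Back-splicing and linear splicing draw on the same pre-mRNA, so the linear transcripts of a host gene are a usual reference for its circRNA. Neurons are known for many circRNAs, often from long genes. The linear products of such genes include mRNAs and also noncoding transcripts, some of which read from an exon into the next intron and are annotated as retained-intron transcripts.

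No protein-coding transcript of the 5 genes was among the 22 rows. GENCODE annotated 10 of the rows as retained-intron transcripts and 12 as processed transcripts without a coding frame. Mllt10 (ENSMUSG00000026743) lies on chromosome 2 of GRCm38 from 18055237 to 18212388 on the plus strand, and its 7 rows stand beside 4 annotated coding transcripts. Strn3 (ENSMUSG00000020954) lies on chromosome 12 from 51609632 to 51691897 on the minus strand. Dock3 (ENSMUSG00000039716) lies on chromosome 9 from 106892825 to 107231909 on the minus strand, and is the longest of the 5 genes. Elavl2 (ENSMUSG00000008489) lies on chromosome 4 from 91250763 to 91400785 on the minus strand. Myt1 (ENSMUSG00000010505) lies on chromosome 2 from 181763332 to 181827797 on the plus strand.

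The row with the most counts in each gene was called its leading transcript. For Dock3 it was Dock3-207 (ENSMUST00000167053), whose 5440 bases run through exons 1 to 9 of the coding reference transcript and then 4334 bases into intron 9. The leading Elavl2 row, Elavl2-215 (ENSMUST00000176469), had 3195 bases, of which 2095 were in intron 6. Elavl2-210 (ENSMUST00000128599) covered 403 bases at the other end of the same intron. Strn3-203 (ENSMUST00000218212) was a single exon of 3701 bases that held 584 bases of intron 7, the 111 bases of exon 8 and 3006 bases of intron 8. Myt1-206 (ENSMUST00000130079) had 17 exons and 5452 bases, starting with 777 bases of intron 6 and going on from exon 7 to exon 23. Mllt10-205 (ENSMUST00000133649) differed from the other leading rows in that all of its 637 bases also lie in coding transcripts. In none of the 22 rows did an exon hold a whole intron of the reference transcript.

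**Figure D1:**
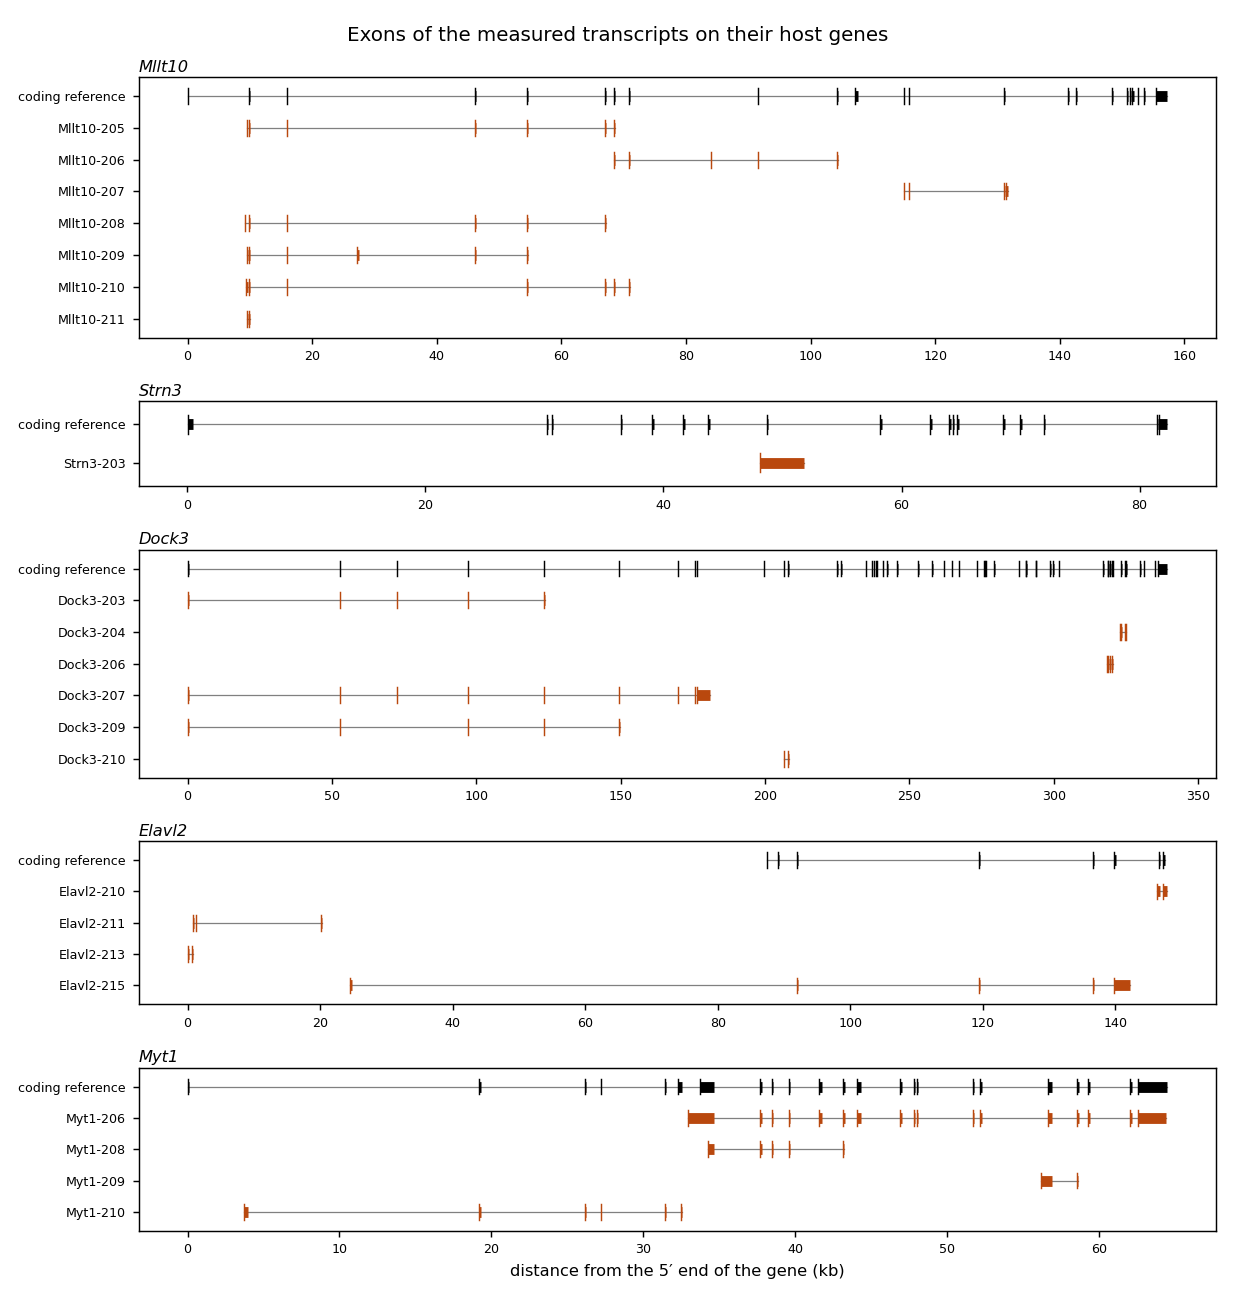
Exons of the 22 measured noncoding transcripts (brown) and of 1 coding reference transcript per gene (black), drawn to scale against the distance from the 5′ end of the gene in kilobases, with thin lines for introns. The wide brown boxes of Dock3-207, Strn3-203 and Elavl2-215 are the stretches that run into an intron.

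The bases at which these rows leave a coding exon are what sets them apart from the mRNA, and they are shown here for the Dock3, Elavl2, Strn3 and Myt1 rows that the results turn on. Exon bases are in lower case and intron bases in capitals, 5′ to 3′ on the gene's strand, from the GENCODE M21 transcript sequences.

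Dock3-207, end of exon 9 at chr9:107055420-107055469, minus strand: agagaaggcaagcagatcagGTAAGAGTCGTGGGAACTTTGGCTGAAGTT

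Dock3-210, end of exon 12 at chr9:107023698-107023747, minus strand: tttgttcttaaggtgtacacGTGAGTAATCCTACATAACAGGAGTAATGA

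Elavl2-215, end of exon 6 at chr4:91260731-91260780, minus strand: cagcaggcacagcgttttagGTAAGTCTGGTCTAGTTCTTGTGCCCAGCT

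Elavl2-210, start of exon 7 at chr4:91254160-91254209, minus strand: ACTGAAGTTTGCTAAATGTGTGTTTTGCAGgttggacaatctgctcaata

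Strn3-203, start of exon 8 at chr12:51643195-51643244, minus strand: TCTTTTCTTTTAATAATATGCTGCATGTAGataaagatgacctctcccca

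Strn3-203, end of exon 8 at chr12:51643074-51643123, minus strand: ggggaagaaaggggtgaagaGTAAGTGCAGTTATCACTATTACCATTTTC

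Myt1-206, start of exon 7 at chr2:181797054-181797103, plus strand: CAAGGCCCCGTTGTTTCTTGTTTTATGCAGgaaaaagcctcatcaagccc

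Myt1-209, start of exon 19 at chr2:181819977-181820026, plus strand: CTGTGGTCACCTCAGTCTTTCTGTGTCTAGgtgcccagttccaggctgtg

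A boundary of this kind was found in 11 of the 22 rows, with 12 windows in all. Of these, 7 of 7 exon ends were followed by GT and 5 of 5 exon starts were preceded by AG, the letters at which introns are usually cut. Windows were taken only where an annotated exon of a row runs across a boundary that the coding transcript splices. The letters therefore describe the annotation and not the reads of these libraries. Reads from an unspliced pre-mRNA would carry the same letters, and reads in the exons cannot be told apart from those of an mRNA or of a circRNA of the same exons.

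Library totals lay between 3517967 and 5014389 counts, of which the 22 rows took 0.0316% to 0.0566%. The summed marker genes of each region fitted the labels. Hippocampal markers, 4 of 9 listed genes, summed to 121 to 143 CPM (counts relative to the scaled library size) in the hippocampus. In the cortex they summed to 29.9 to 53.3 CPM, and in both regions most of their counts were of Zbtb20. Cortical markers, 5 of 8 listed genes, summed to 50.2 to 80.7 CPM in the hippocampus and 119 to 162 CPM in the cortex. Single cortical markers, such as Cux2 with 51 to 99 and 78 to 105 counts, overlapped between the regions. Xist, the RNA of the inactive X chromosome in females, was high in 4 of the 12 libraries, 5 × FAD 1 and 2 of both regions, and all 8 others had counts of Y-linked genes. This goes against the stated make-up of 2 females and 1 male per group, and it ties sex to genotype. Of the 10 listed genes of microglia, 2 were measured. Aif1 had 5 to 12 counts in the 4 Xist-high libraries and 2 to 11 in the other 8. Trem2, a receptor of microglia, had 688 to 1046 counts in those 4 libraries and 87 to 248 in the other 8. These 8 include the 2 libraries labelled 5 × FAD 3. The genotype differences of the leading rows, Dock3-210 and Mllt10-207 are therefore also given without 5 × FAD 3 and with a term for the Xist-high libraries.

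Per kilobase of transcript, the leading rows of Strn3 and Mllt10 were the highest of the 5 and that of Elavl2 was the lowest. Strn3-203 averaged 31.4 CPM per kilobase (SD 5.49 over the 12 libraries), Mllt10-205 averaged 25.4 (SD 9.8) and Dock3-207 averaged 18.6 (SD 4.6). Myt1-206 followed with 17.0 (SD 7.88) and Elavl2-215 with 15.3 (SD 2.46). Each neighbouring pair in this order differed by less than 1 SD of the more variable member. The rows also differ in the share of their bases that lie in coding transcripts. It was 3.0% for Strn3-203, 100% for Mllt10-205, 20.3% for Dock3-207, 85.7% for Myt1-206 and 34.4% for Elavl2-215. Reads of mRNA can fall in such bases, so the order is not one of noncoding RNA alone. Among the other rows, the short Dock3-210 stood at 28.0 CPM per kilobase (SD 11.6), and the lowest was Elavl2-213, which had 0 counts in 10 of the 12 libraries and at most 1 in the others.

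None of the members passed the test between genotypes. After a filter on low counts, 14 of the 22 rows were tested in the hippocampus and 15 in the cortex, and 5 were too low for any fit. With edgeR's quasi-likelihood test and Benjamini-Hochberg adjustment at 0.05, 0 of 14 were called in the hippocampus, where 4 of all 21894 tested transcripts (0.0183%) were called. In the cortex 0 of 15 were called, against 12 of 21999 (0.0545%). DESeq2 also called 0 of the members in both regions. At an unadjusted p under 0.05, 2 of 14 rows stood in the hippocampus, Dock3-207 and Mllt10-207, where 7.58% of all tested transcripts did. In the cortex 1 of 15 did, again Dock3-207, against 5.34%. Summing the rows of each gene gave 0 of 5 genes called in either region, with 0.0529% of 11343 genes and assembled loci called in the hippocampus and 0.0175% of 11404 in the cortex. At an unadjusted p under 0.05 the Dock3 sum stood alone among the 5 in each region, where 8.69% and 6.67% of all sums did.

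The median log2 fold change of the tested rows, 5 × FAD over WT, was -0.05 in the hippocampus and 0.10 in the cortex, beside 0.02 and 0.00 for all tested transcripts. Of the 13 rows tested in both regions, 4 were above 0 in both, 5 below 0 in both and 4 had opposite signs.

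**Figure D2:**
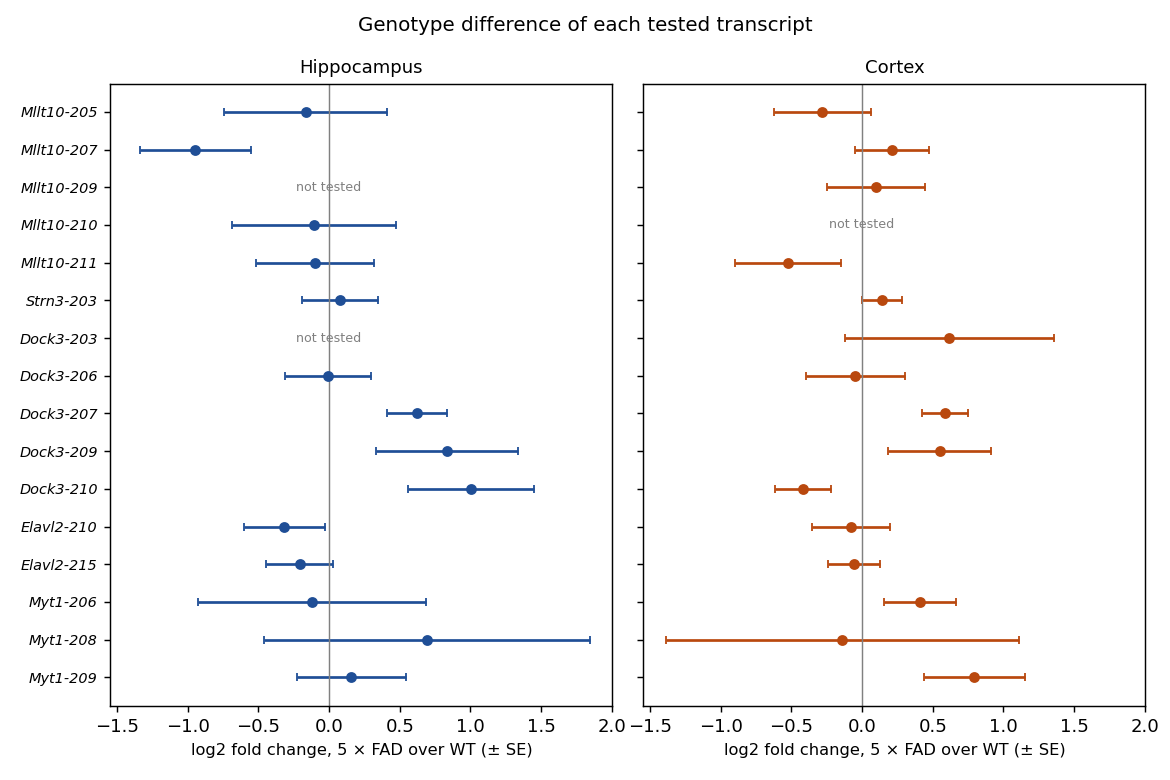
Log2 fold change of 5 × FAD over WT for each tested row, with the standard error as the bar, in the hippocampus (left) and the cortex (right). Dock3-207 lies near 0.6 in both panels with short bars, while Dock3-210 lies at 1.0 on the left and -0.42 on the right.

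Dock3 encodes an atypical guanine nucleotide exchange factor for the GTPase Rac1, found mainly in neurons. Scaled to library size, its leading row was higher in each 5 × FAD library than in any WT library of the same region, although the difference did not pass adjustment. In the hippocampus, Dock3-207 had 302, 402 and 313 counts in the WT libraries, while the 5 × FAD libraries had 519, 496 and 391. On scaled library sizes these were 64.8, 85.6 and 71.2 CPM against 126, 114 and 95.9 CPM. The lowest 5 × FAD library, 5 × FAD 3, thus stood above the highest WT library. The group means were 73.9 ± 10.6 and 112 ± 15.4 CPM (SD, n = 3 each), a log2 fold change of 0.62 (SE 0.21). The adjusted p by edgeR's quasi-likelihood test was 0.612, with an unadjusted p of 0.0227.

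In the cortex, Dock3-207 had 326, 403 and 353 counts in the WT libraries, while the 5 × FAD libraries had 559, 490 and 617. These came to 77.8, 86.7 and 100 CPM against 123, 131 and 140 CPM. Here the highest library was 5 × FAD 3 and the groups were also apart. Both regions came from the same mice by the series' design, so this is not an independent repeat. The means were 88.3 ± 11.4 and 131 ± 8.25 CPM (SD, n = 3 each), and the log2 fold change was 0.59 (SE 0.16; edgeR's quasi-likelihood test, adjusted p = 0.844, unadjusted p = 0.00967). Transcripts whose 5 × FAD libraries all stood above the WT libraries made up 7.29% of those tested in the hippocampus and 5.77% in the cortex. In bulk tissue, more cells that hold a transcript and more of it per cell cannot be told apart.

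The Dock3 difference had the same direction without 5 × FAD 3 and with a term for the Xist-high libraries. Each scaled 5 × FAD value lay above all WT values of its region, so neither fit could easily turn it. Without 5 × FAD 3 the log2 fold change of Dock3-207 was 0.73 in the hippocampus and 0.54 in the cortex. All 5 × FAD libraries are then Xist-high and no WT library is, so that fit cannot tell genotype from sex. With a term for the Xist-high libraries the log2 fold change was 0.38 and 0.68. This fit leaves 5 × FAD 3 alone against WT and assumes that this library varies like the others. It thus rests on the library in doubt, with 164 hippocampal and 87 cortical Trem2 counts. A genotype difference of Dock3-207 apart from sex was therefore not tested with replicate libraries. The genotype effects of the 2 regions differed by 0.02 (SE 0.25), and the range of 2 SE on either side ran from -0.48 to 0.52. Summed markers of neurons were 1537 to 3440 CPM in WT and 1783 to 7266 CPM in 5 × FAD hippocampus, and 1651 to 2828 and 1366 to 3173 CPM in the cortex, for 7 of the 8 listed genes. The highest hippocampal sum came with Slc17a7 (14888 counts) and Gad1 (9574 counts) in 5 × FAD 1. Map2 went the other way in the hippocampus. It had 2239, 2242 and 1900 counts in WT, while 5 × FAD had 1312, 1523 and 1538. Snap25 had 879 to 1358 counts in WT and 730 to 868 in 5 × FAD hippocampus. These counts are before scaling to library size. Library totals there were 4449939 to 5014389 in WT and 3962768 to 4415934 in 5 × FAD, and the Snap25 groups overlapped once scaled. The part of these markers in the Dock3 values was not tested.

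The other 5 Dock3 rows together had 82 to 115 counts in WT hippocampus and 107 to 210 in 5 × FAD hippocampus, and 118 to 158 and 120 to 134 in the cortex, so that Dock3-207 held 71.0% to 83.1% of the sum. The sum over the 6 rows was 416, 484 and 428 counts in WT hippocampus, while 5 × FAD hippocampus had 729, 625 and 498. In the cortex it was 459, 561 and 471 against 689, 610 and 751. Scaled, the groups were apart in both regions, at 95.6 ± 6.77 against 150 ± 31.4 CPM in the hippocampus and 122 ± 14.6 against 162 ± 9.38 CPM in the cortex (SD, n = 3 each). Such a separation with 5 × FAD higher was found in 7.53% of all sums in the hippocampus and 6.35% in the cortex. Log2 fold changes were 0.66 (SE 0.19) and 0.42 (SE 0.14), with adjusted p = 0.526 and 0.725 by edgeR's quasi-likelihood test.

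Dock3-207 shares 812 of its bases with other measured Dock3 rows, all in the exons at the 5′ end of the gene, so that counts in those exons can be divided among rows. A predicted miRNA gene, Gm22238, also shares 88 bases with Dock3-207 and Dock3-209 on the same strand. No other annotated gene overlapped an exon of the 22 rows on either strand.

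Dock3-210 (ENSMUST00000170193), a row of 529 bases around exons 11 and 12, took another course than Dock3-207. WT hippocampus gave 48, 34 and 55 counts of it, 5 × FAD hippocampus gave 128, 75 and 44, and these groups overlapped through 5 × FAD 3. WT cortex gave 67, 73 and 67 counts, 5 × FAD cortex gave 62, 41 and 57, and scaled to library size all 5 × FAD libraries lay below the WT libraries, as 6.39% of tested transcripts did. Its log2 fold change was 1.0 (SE 0.45) in the hippocampus and -0.42 (SE 0.20) in the cortex. Between the regions the genotype effects differed by 1.40 (SE 0.50), with an adjusted p of 0.661 by edgeR's quasi-likelihood test on the interaction. Without 5 × FAD 3 the hippocampal value was 1.30 (SE 0.38), with an unadjusted p of 0.0169 and an adjusted p of 0.350 by edgeR. With a term for the Xist-high libraries it was 0.11, and without 5 × FAD 1 it was 0.50 and the difference between the regions 0.92. The cortical value was -0.44 without 5 × FAD 3 and -0.37 with the Xist-high term.

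**Figure D3:**
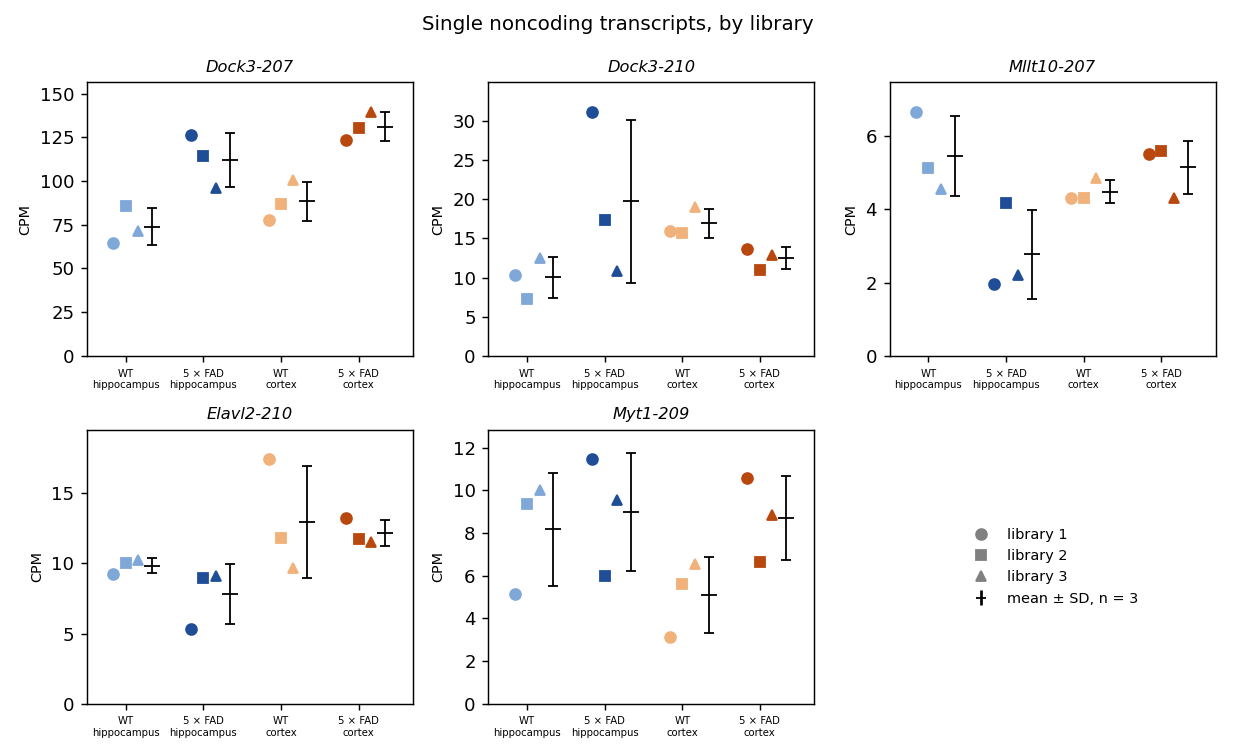
CPM of 5 single rows in each library, with library 1, 2 and 3 of a group as circle, square and triangle and the mean ± SD (n = 3) in black. Dock3-207 is higher in the 5 × FAD than in the WT libraries of both regions, while the other rows are apart in 1 region only.

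Strn3 encodes a striatin, a scaffold that holds the phosphatase PP2A in the striatin-interacting phosphatase and kinase (STRIPAK) complex. Its only row did not pass the test between genotypes in either region. Strn3-203 had 533, 670 and 471 counts in the WT hippocampus libraries, while 5 × FAD hippocampus had 505, 718 and 373. WT cortex had 436, 480 and 367 counts, while 5 × FAD cortex had 466, 441 and 528. The groups overlapped in both regions. The 3 WT cortex libraries lay close together at 103 to 104 CPM, while 5 × FAD hippocampus spread from 91.5 to 166 CPM. The log2 fold change was 0.08 (SE 0.27) in the hippocampus and 0.14 (SE 0.14) in the cortex, with edgeR's adjusted p = 0.960 and 0.930. In the cortex the range of 2 SE on either side ran from -0.14 to 0.42. That of Dock3-207 ran from 0.26 to 0.91, so the ranges overlapped, and a difference between these rows was not tested. Without 5 × FAD 3 the 2 Strn3-203 values were 0.27 and 0.10, and with a term for the Xist-high libraries -0.41 and 0.22.

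Elavl2 encodes a neuronal RNA-binding protein of the ELAV (Hu) family that acts on the splicing and stability of transcripts with AU-rich stretches. Elavl2-215 had 209, 290 and 185 counts in the WT hippocampus libraries, while 5 × FAD hippocampus had 145, 213 and 175. WT cortex had 181, 253 and 213 counts, while 5 × FAD cortex had 246, 176 and 218. The groups overlapped in both regions, and the log2 fold changes were -0.21 (SE 0.24) and -0.06 (SE 0.19), with edgeR's adjusted p = 0.839 and 0.984. They were -0.21 and -0.043 without 5 × FAD 3, and -0.21 and -0.082 with the Xist-high term. Elavl2-210, which enters the same intron from its 3′ end, stood at 9.23, 10 and 10.2 CPM in WT hippocampus and at 5.36, 9.0 and 9.07 CPM in 5 × FAD hippocampus. These groups did not overlap, as for 8.5% of tested transcripts with 5 × FAD lower, but the log2 fold change was -0.32 (SE 0.29; edgeR's adjusted p = 0.798). It lay between -0.43 and -0.10 with each library left out and under the other settings. The sum of the 4 Elavl2 rows was 59.8 ± 10.2 and 51.0 ± 8.57 CPM in WT and 5 × FAD hippocampus and 66.5 ± 6.08 and 63.0 ± 4.79 CPM in the cortex (SD, n = 3 each).

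Mllt10 encodes AF10, a cofactor of the histone methyltransferase DOT1L. Mllt10-205 had 122, 88 and 43 counts in the WT hippocampus libraries, while 5 × FAD hippocampus had 99, 78 and 24. WT cortex had 71, 73 and 63 counts, while 5 × FAD cortex had 44, 38 and 94. The groups overlapped in both regions, in the cortex through 5 × FAD 3 alone. The log2 fold changes were -0.16 (SE 0.58) in the hippocampus and -0.28 (SE 0.35) in the cortex. Without 5 × FAD 3 they were 0.23 and -0.75, the latter with an SE of 0.22, an unadjusted p of 0.0168 and an adjusted p of 0.857 by edgeR's quasi-likelihood test. With a term for the Xist-high libraries they were -1.63 and 0.35, the former with an SE of 0.65, an unadjusted p of 0.0506 and an adjusted p of 0.587 by edgeR. The direction in each region thus turned with the libraries used. Its share of the Mllt10 counts ranged from 23.8% to 69.2%, the widest of the leading rows, and since all of its bases lie in other measured rows too, the division among Mllt10 rows rests on how reads were assigned. The sum over the 7 rows was 35.3 ± 13.2 and 31.4 ± 5.93 CPM in WT and 5 × FAD hippocampus and 33.6 ± 1.65 and 29.8 ± 5.76 CPM in the cortex (SD, n = 3 each).

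Mllt10-207 (ENSMUST00000149786), which lies at exons 12 to 14 and shares no base with another measured row, was lower in 5 × FAD hippocampus at an unadjusted p under 0.05. The WT libraries had 31, 24 and 20 counts, the 5 × FAD libraries 8, 18 and 9, and the groups did not overlap, as for 8.5% of tested transcripts with 5 × FAD lower. The log2 fold change was -0.95 (SE 0.39), with an unadjusted p of 0.0486 and an adjusted p of 0.656 by edgeR's quasi-likelihood test. In the cortex its 18, 20 and 17 counts in WT overlapped with the 25, 21 and 19 in 5 × FAD mice on scaled library sizes, and the log2 fold change was 0.21 (SE 0.26). The genotype effects differed between the regions by -1.17 (SE 0.45; edgeR's adjusted p = 0.665). Without 5 × FAD 3 the hippocampal value was -0.80 and the cortical value 0.33, and with a term for the Xist-high libraries they were -1.29 and -0.042. These counts are low, and a single library of this depth has a floor of 0.598 to 0.853 CPM at 3 counts, a limit for counting error only.

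Myt1 encodes a zinc finger transcription factor of neuronal differentiation and of the oligodendrocyte lineage. Relative to its mean, its leading row varied the most of the 5 leading rows, with an SD of 46.3% of the mean CPM over the 12 libraries, ahead of 38.5% for Mllt10-205. Myt1-206 had 590, 584 and 90 counts in the WT hippocampus libraries, while 5 × FAD hippocampus had 643, 139 and 229. The group means there were 90.5 ± 60.7 and 81.6 ± 66.1 CPM (SD, n = 3 each). WT cortex had 346, 487 and 249 counts, 5 × FAD cortex had 426, 367 and 655, and the groups overlapped. The log2 fold change was -0.12 (SE 0.81) in the hippocampus and 0.41 (SE 0.25) in the cortex, with edgeR's adjusted p = 0.980 and 0.913. Without 5 × FAD 3 the values were 0.093 and 0.17. With a term for the Xist-high libraries they were -0.69 and 0.80, the latter with an SE of 0.28, an unadjusted p of 0.0315 and an adjusted p of 0.710 by edgeR.

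The 3 hippocampal libraries with few Myt1-206 counts were those in which Myt1-208 (ENSMUST00000142245), a row of 750 bases that all lie in other measured rows too, had more. Myt1-208 had 37 counts in WT 3, 35 in 5 × FAD 2 and 56 in 5 × FAD 3, against 12, 12 and 0 in WT 1, WT 2 and 5 × FAD 1. Myt1-206 held 52.6%, 69.5% and 70.7% of the Myt1 counts in the first 3 libraries and 91.3% to 94.1% in the others of the hippocampus. The rise in Myt1-208 was far smaller than the shortfall of Myt1-206. The Myt1 sum was low in the same libraries too, at 38.6, 46.0 and 79.2 CPM against 133, 135 and 176 CPM. Of the 5452 bases of Myt1-206, 4675 also lie in coding transcripts of Myt1, as do all bases of Myt1-208. The coding transcripts are not among the rows, so reads assigned to them are missing from the sum. In the cortex the share of Myt1-206 was 87.8% to 94.2%. Summed oligodendrocyte-lineage markers, 7 of 11 listed genes, were 501 to 575 CPM in WT and 591 to 702 CPM in 5 × FAD hippocampus, and 383 to 611 and 599 to 753 CPM in the cortex. Cnp had the most counts of the list in 5 × FAD hippocampus, with 1171, 1069 and 716 counts in WT while 5 × FAD had 1665, 1448 and 1139. Mag had 226 to 284 counts in WT and 171 to 275 in 5 × FAD hippocampus, Mbp 49 to 103 and 50 to 64, and Mobp 25 to 46 and 14 to 26. The part of these markers in the Myt1 values was not tested.

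Myt1-209 (ENSMUST00000148766), which reads from intron 18 into exons 19 and 20, stood at 3.10, 5.59 and 6.54 CPM in WT cortex and at 10.6, 6.66 and 8.83 CPM in 5 × FAD cortex. The groups were apart by the narrow gap between WT 3 and 5 × FAD 2, as were those of 5.77% of tested transcripts with 5 × FAD higher. Its log2 fold change was 0.79 (SE 0.36; edgeR's quasi-likelihood test, adjusted p = 0.912). It lay between 0.52 and 0.99 with each library left out and under the other settings. In the hippocampus the log2 fold change was 0.16 (SE 0.39).

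**Figure D4:**
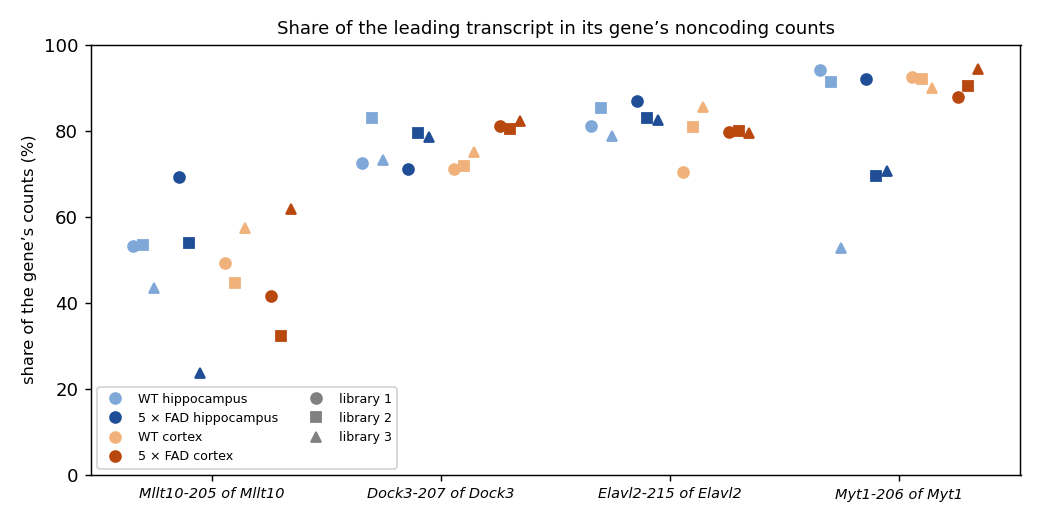
Percentage of each gene's noncoding counts held by its leading row in the 12 libraries, coloured by group, for the 4 genes with more than 1 row. Myt1-206 falls to between 52.6% and 70.7% in 3 hippocampal libraries, while Dock3-207 stays between 71.0% and 83.1%.

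The regions were compared over all 12 libraries, averaged over genotype. This fit and that of the interaction took the libraries as independent. By the series' design each mouse gave both regions, but which libraries share a mouse is not stated. Of 17 rows tested, 0 were called by edgeR's quasi-likelihood test and 0 by DESeq2, where 628 of 24632 transcripts (2.55%) were called by edgeR. Elavl2-210 stood alone at an unadjusted p under 0.05, as did 14.3% of all transcripts, with a log2 fold change of hippocampus over cortex of -0.52 (SE 0.19; edgeR's adjusted p = 0.222). Its libraries ranged from 5.36 to 10.2 CPM in the hippocampus and from 9.67 to 17.4 CPM in the cortex, so the regions overlapped. Of the gene sums, 0 of 5 were called where 6.86% of 12104 were, and 0 of 5 had an unadjusted p under 0.05, as 19.6% of all sums did. The log2 fold changes of hippocampus over cortex were -0.22 (SE 0.12) for Dock3, -0.22 (SE 0.13) for Elavl2 and 0.20 (SE 0.14) for Strn3. They were 0.08 (SE 0.19) for Mllt10 and -0.09 (SE 0.35) for Myt1.

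An unequal genotype effect in the 2 regions was called for 0 of 17 rows and 0 of 5 sums by edgeR's quasi-likelihood test, and for 0 by DESeq2. Over all features, 2 of 24632 transcripts (0.00812%) and 0 of 12104 sums were called. At an unadjusted p under 0.05 there were 2 of 17 rows, Mllt10-207 and Dock3-210 as given above, against 6.89% of all transcripts.

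**Figure D5:**
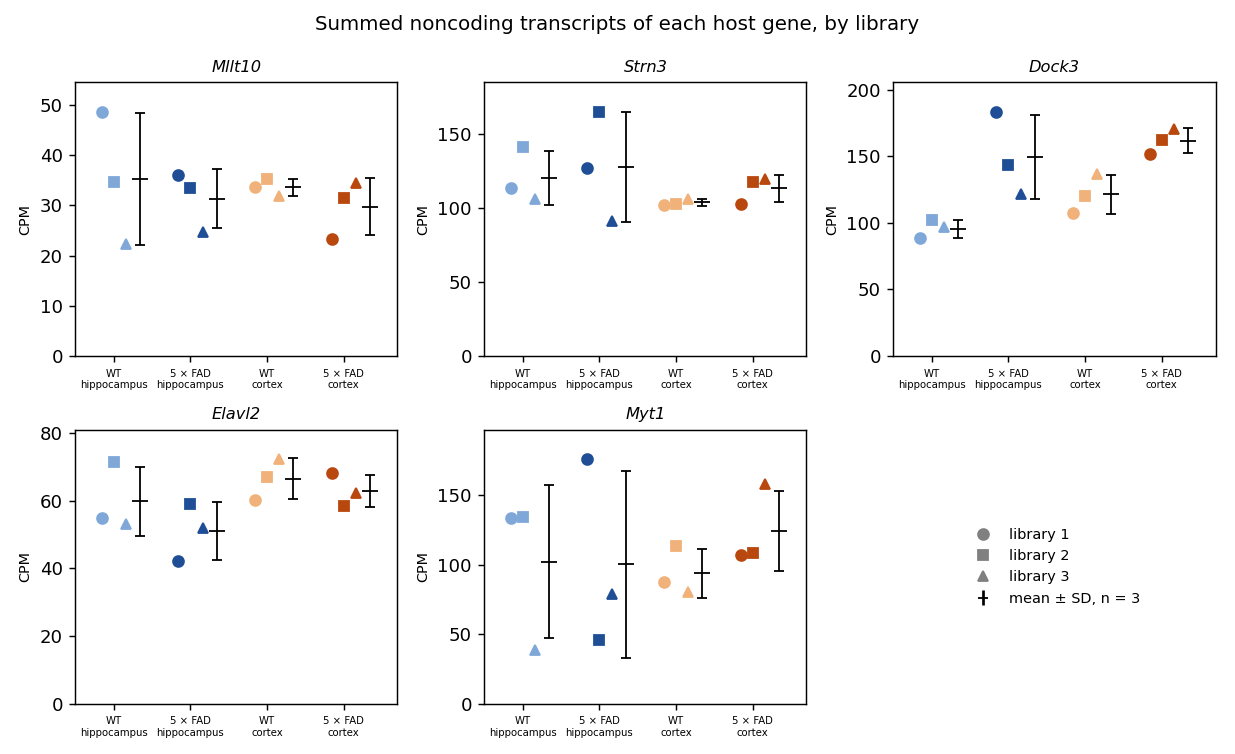
Summed CPM of the noncoding rows of each host gene in the 12 libraries, with the mean ± SD (n = 3) in black. The Dock3 sum is between 88.5 and 102 CPM in WT hippocampus and 122 and 184 CPM in 5 × FAD hippocampus, while the groups of the other genes overlap.

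Genes that work with the hosts were read from the same table, as sums of their measured rows. No gene of the 6 lists was called between genotypes by edgeR's quasi-likelihood test in either region. The lists held 72 distinct genes tested in each region, of which 6 in the hippocampus and 6 in the cortex (8.33% each) had an unadjusted p under 0.05, against 8.69% and 6.67% of all sums. Among 14 measured paralogs of the hosts, 0 passed between genotypes. Between the regions, where 6.86% of all sums were called in either direction, 2 of the 14 were higher in the hippocampus, Dock4 at a log2 fold change of 1.21 (SE 0.21; edgeR's adjusted p = 0.00583) and Dock10 at 0.96 (SE 0.22; adjusted p = 0.0252), both exchange factors of the same family as Dock3. The median of the 14 was 0.27, beside 0.00 for all sums.

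Of 10 tested genes of the DOCK, ELMO and Rac pathway, through which DOCK proteins drive actin remodelling, 1 was higher and 1 lower in the hippocampus than in the cortex, beside the 6.86% of all sums called in either direction. Elmo1, a partner of DOCK proteins, was at -0.90 (SE 0.16; edgeR's adjusted p = 0.00597). Nckap1, a subunit of the WAVE complex that acts downstream of Rac, was at 0.67 (SE 0.16; edgeR's adjusted p = 0.0296). Of 14 STRIPAK genes 1 was higher in the hippocampus, Cttnbp2 at 0.52 (SE 0.08; edgeR's adjusted p = 0.00268), a neuronal cortactin-binding protein. Of 10 genes of the DOT1L and super elongation complexes 1 was lower, Aff1 at -0.80 (SE 0.21; edgeR's adjusted p = 0.0488).

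Factors known to act on circRNA formation or decay were measured through 13 of 18 listed gene names, of which 11 were tested. Qk and Qki in that list name the same gene. None was called between genotypes or regions by edgeR's quasi-likelihood test. In the hippocampus, the cortex and between the regions, 8.69%, 6.67% and 19.6% of all sums had an unadjusted p under 0.05. Of the 11 factors, 0 did in the hippocampus, 0 in the cortex and 1 between the regions. Their median log2 fold change of 5 × FAD over WT was 0.13 in the hippocampus and 0.09 in the cortex, beside 0.03 and 0.00 for all sums. Of 16 other known brain circRNA hosts tested in each region 0 were called between genotypes, and of 17 tested between regions, where 6.86% of all sums were called, 1 was, Dlgap1, a postsynaptic scaffold gene, at 0.38 (SE 0.09; edgeR's adjusted p = 0.0258).

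The sums whose levels followed each host most closely were taken by Pearson's r of log2 CPM over the 12 libraries, out of 12104 sums. For Dock3 these were Dapk3 (r = 0.941) and Cln3 (r = 0.906). For Strn3, Picalm (r = 0.897) was among the closest. For Mllt10 they were Adcy3 (r = 0.835) and Eif2b3 (r = 0.801), and for Myt1 Slco5a1 (r = 0.861) and Cox7c (r = 0.835). For Elavl2 the closest were an assembled locus without a gene name (r = 0.944) and a transcript not found in GENCODE M21 (r = 0.915). The points share libraries and depth, and the highest of so many r values is a description only.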

How the data were processed

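The deposited file holds whole-number counts per transcript for 12 libraries, which the authors left unnormalized. Per the labels, ribosomal RNA was depleted, stranded paired-end libraries were made, and reads were trimmed with Trimmomatic 0.36. The aligner, the counter, the use of strand and the genome build are not given in the sources used here. By the series' design each mouse gave a hippocampus and a cortex, so the 3 libraries of a group are separate animals.

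Rows were matched to GENCODE M21 (GRCm38), which holds 45372 of the 45597 Ensembl identifiers. The members and gene lists were chosen with earlier results of these data known. All tests were fitted on the whole table with edgeR 4.0.16 in R 4.3.3 (filterByExpr, TMM, glmQLFit, glmQLFTest), per transcript and on sums over each gene or assembled locus, with Benjamini-Hochberg adjustment at 0.05. The genotypes were compared over the 6 libraries of a region, and the regions and the interaction over all 12 without pairing by mouse. SE is the log2 fold change over the square root of F. CPM values use TMM-scaled library sizes. DESeq2 1.42.0, other scalings and filters, a replicate block and leaving out each library were alternatives. The term for Xist-high libraries (at least 1000 counts) was chosen after seeing the data. Single values were given for leading rows, rows past an unadjusted p of 0.05 and gene sums, and also for Myt1-209 (groups apart in the cortex), Elavl2-210 and Myt1-208, named after their values were seen. Functions were tested on simulated data. Within each group, counts of 2 libraries differed beyond counting noise, at a chi-square per degree of freedom of 20.8 to 33.0. Figures and annotation used Python 3.11.15, pandas 2.3.3 and matplotlib. One of the sums closest to Strn3 is not reported here.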

Additional observations from a re-analysis of the deposited data

How the results depend on the processing

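No member row or gene sum was called in any alternative, 15 for each genotype comparison, 21 between the regions and 19 for the interaction. Over all transcripts the calls ran from 0 to 127 in the hippocampus, 0 to 102 in the cortex, 4 to 1378 between the regions and 0 to 99 for the interaction, with DESeq2 giving 127 and 102 in the genotype comparisons. Over all sums they ran from 0 to 83, 0 to 53, 22 to 1203 and 0 to 23. Whether the same number marks the same mouse is not stated. Same-numbered libraries of the 2 regions correlated at 0.006 to 0.132 in their deviations from the group means, and those of the 2 genotypes at -0.039 to 0.0085. With the closest library of another number, the values were -0.048 to 0.058 between the regions and -0.0032 to 0.028 between the genotypes. With the replicate number as a block 0 members were called.

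The Dock3-207 difference kept its direction in every alternative, at 0.38 to 0.74 in the hippocampus (adjusted p 0.328 to 0.927) and 0.49 to 0.68 in the cortex (0.437 to 0.963). With the scaled groups apart in both regions, these alternatives could hardly turn it. The Dock3 sum lay between 0.38 and 0.78 and between 0.34 and 0.50. Small differences of other rows changed sign, and the cause was not tested. With the Xist-high term, the hippocampal log2 fold change of Strn3-203 was -0.41 and of the Strn3 sum -0.37, and the cortical value was 0.35 for Mllt10-205, -0.042 for Mllt10-207 and 0.039 for the Mllt10 sum. The hippocampal Myt1 sum was 0.037 with library size only and 0.0029 with the replicate block, and its region difference was 0.12 in WT libraries only.

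Leaving out 1 library at a time gave hippocampal log2 fold changes of -0.59 to 0.23 for Mllt10-205, -1.02 to 0.26 for Myt1-206 and -0.15 to 0.27 for Strn3-203, and cortical ones of -0.19 to 0.040 for Elavl2-215. For the hippocampal sums the ranges were -0.41 to 0.14 for Mllt10, -0.68 to 0.33 for Myt1 and -0.13 to 0.29 for Strn3. Between the regions the sums ranged from -0.081 to 0.19 for Mllt10 and -0.44 to 0.10 for Myt1, and the Dock3-207 interaction from -0.080 to 0.14.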
